A study of Homo sapiens with 10 samples.

Results

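The genes described here are those that build cholesterol and fatty acids under the control of the sterol regulatory element-binding proteins (SREBPs). They were chosen by their place in the pathway and not by their measured level, though earlier results of these data were known. The list held 5 genes of sterol sensing and SREBP control, 9 of the mevalonate pathway up to squalene and 9 that turn squalene epoxide into cholesterol. It also held 1 sterol transporter and 7 genes of fatty acid synthesis, elongation and desaturation. Of these 31 named genes, 30 were matched to the 20327 genes of the deposited tables, and ACACA was not matched and is not analysed here. RNA was measured in hTERT RPE-1 cells, a telomerase-immortalised human line from retinal pigment epithelium labelled wild type, after merbarone, a catalytic inhibitor of topoisomerase II. In the first experiment, 3 libraries from cells given DMSO for 30 min were compared with 3 from cells given merbarone at 200 µM for 30 min. In the second, 2 libraries from untreated cells were compared with 2 from cells given merbarone at 200 µM for 2 h. All cells, controls included, had been kept for 48 h in medium with 0.1% serum before treatment. The control of the 2 h experiment received no vehicle, so drug and vehicle cannot be told apart there.

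SREBP precursors sit in the membrane of the endoplasmic reticulum bound to SCAP, which carries them to the Golgi when sterols are scarce, and proteases there release the part that enters the nucleus. INSIG proteins hold SCAP back when sterols are plentiful, which lowers the whole set of sterol synthesis genes. SREBF2 encodes the form best known for the sterol genes, and SREBF1 encodes forms best known for the fatty acid genes.

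Libraries of the 30 min experiment held 26638294 to 38231306 reads and those of the 2 h experiment 11958942 to 13693422 reads. Values are RPKM, reads scaled to gene length and to the library's total, and whole reads could be recovered from them for every gene above 0. Among the members, 55 to 119 reads lay behind HSD17B7 in each library and at least 257 behind any other member. The labels do not say whether replicates came from separate cultures, so p-values measure the spread between these libraries, which may be technical. The epithelial keratin KRT18 lay at 14.1 to 69.4 RPKM. Of 8 markers of retinal pigment epithelium, BEST1 (at least 2.10 RPKM in every library, overlapping FTH1), PMEL (3.68 to 5.07, overlapping CDK2) and OTX2 (2.35 to 4.61) were present, MITF lay at 0.218 to 0.415 RPKM, and RPE65, RLBP1, TTR and TYRP1 reached at most 0.066 RPKM. The 8 summed to 9.03 to 11.3 RPKM in DMSO, 8.82 to 11.5 after 30 min of merbarone, 28.1 to 29.0 in untreated cells and 25.1 to 28.9 after 2 h of merbarone. Of the 8, BEST1 differed most in RPKM between the experiments. OTX2 fell at 2 h, with a log2 change of -0.32 ± 0.08 (SE) at adjusted p = 0.0349 in limma, a call lost when either merbarone replicate was left out. BEST1 (-0.02 ± 0.11, SE) and PMEL (-0.08 ± 0.10, SE) were not called. MITF, too low to be tested, went the other way. It measured 0.349 and 0.303 RPKM untreated and 0.415 and 0.370 RPKM after 2 h of merbarone. The part of these markers in the 2 h results was not tested. Of 7 matched markers of other cell types, COL1A1 (1.48 to 5.92 RPKM) was the only one above 0.1 RPKM, and CD3E and CDH5 were at 0 in all 10 libraries. The summed level of those 7 was 1.57 to 2.11 RPKM in DMSO, 1.80 to 2.06 after 30 min of merbarone, 3.18 to 4.78 in untreated cells and 5.57 to 6.0 after 2 h of merbarone, and its part in the 2 h results was not tested.

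The sterol and fatty acid genes were expressed in the serum-starved control cells, most of them well. To compare genes with each other, RPKM was recomputed on the summed exon length (exon RPKM), because the deposited values used the whole gene with its introns for most genes. In exon RPKM, SCD, the desaturase that makes oleate, was the highest member, at 241 ± 7.29 in DMSO (SD, n = 3) and 360 ± 15 in untreated cells (SD, n = 2). It was followed in both controls by FADS2, a desaturase of polyunsaturated fatty acids, at 165 ± 24.7 (SD, n = 3) and 153 ± 6.17 (SD, n = 2). FADS2 overlaps FADS1 and FEN1, whose reads it may include, so its level and rank are less certain. MSMO1, a sterol oxidase that removes methyl groups from the ring, came next, at 131 ± 16.8 (SD, n = 3) and 133 ± 25.4 (SD, n = 2), a level whose libraries overlapped those of FADS2. HSD17B7, a sterol ketoreductase, was the lowest, at 0.525 ± 0.207 (SD, n = 3) and 1.31 ± 0.0282 (SD, n = 2). INSIG1 lay at 93.9 ± 8.76 exon RPKM in DMSO (SD, n = 3) and INSIG2 at 7.90 ± 0.513 (SD, n = 3), so INSIG1, itself an SREBP target, was the more abundant of the pair.

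**Figure D1:**
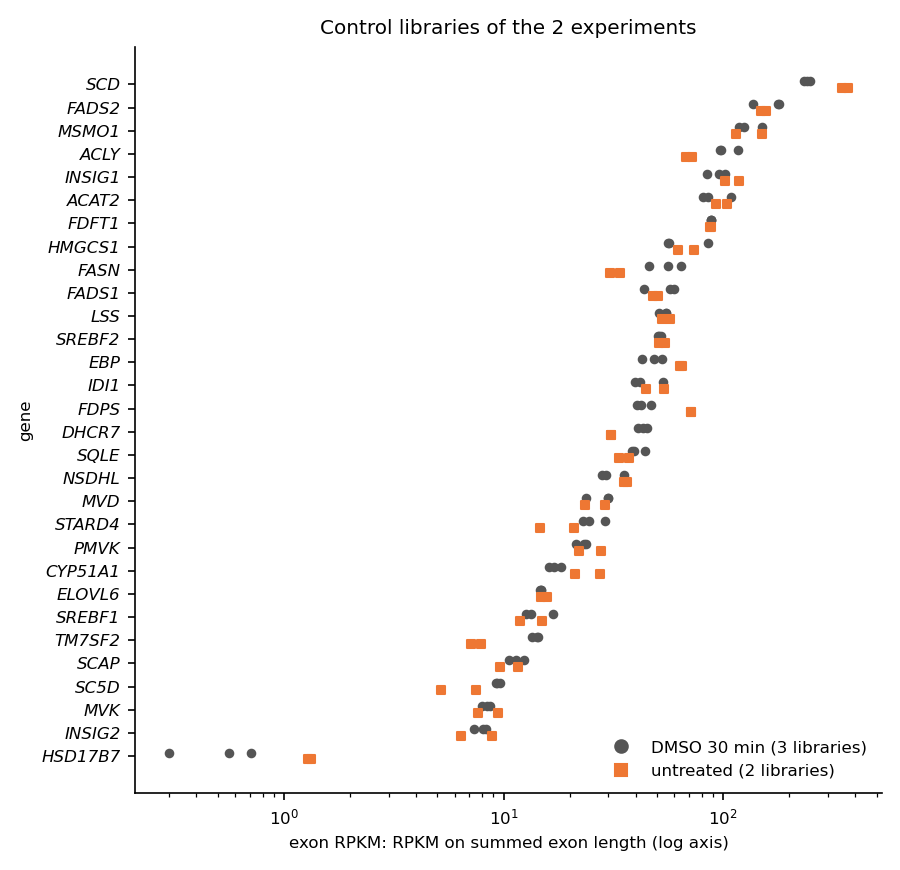
Level of 30 members in the control libraries, in exon RPKM on a log axis; circles are the 3 DMSO libraries, squares the 2 untreated libraries, and genes are ordered by their DMSO mean. SCD is highest and HSD17B7 lowest in both controls; the squares lie apart from the circles for FASN, ACLY, DHCR7, TM7SF2, SCD, FDPS and EBP, among others.

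The controls of the experiments were not at the same level for every member, which is given as values because experiment, depth and vehicle differ between them and cannot be told apart. FASN, the synthase that assembles palmitate, measured 29.8, 26.2 and 21.3 RPKM in the DMSO libraries and 14.2 and 15.8 RPKM in the untreated libraries. FDPS, which makes farnesyl diphosphate, went the other way, with 13.2, 14.7 and 12.6 RPKM in DMSO against 22.2 and 22.4 RPKM untreated. TM7SF2, a sterol C14 reductase, measured 10.6, 10.8 and 10.1 RPKM in DMSO against 5.32 and 5.95 RPKM untreated. In these 3 genes, given as examples, the control libraries of the experiments did not overlap, in different directions. The share of all genes apart between these controls was not counted, so nothing particular to the members can be read from this.

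Promoter windows from RefSeq (GRCh38.p14; 250 bases up to the start site) were found for 26 members, and 4 are printed because their genes frame what follows: STARD4 and HMGCS1 were the sterol genes with the largest positive and negative log2 fold changes at 2 h, INSIG1 is the sensor, and SREBF2 is the factor itself. STARD4 lies at chr5:111512536-111512785 and HMGCS1 at chr5:43313413-43313662, both on the minus strand (1 of 2 listed starts for HMGCS1), INSIG1 at chr7:155297628-155297877 and SREBF2 at chr22:41832855-41833104, both on the plus strand. Capitals mark the motifs searched on both strands: CACCCCA, the core of the classical sterol regulatory element, the CCAAT box (CCAAT, which NF-Y binds), the GC box (GGGCGG) and the E box (CACGTG), with overlapping GC boxes shown as 1 run.
STARD4: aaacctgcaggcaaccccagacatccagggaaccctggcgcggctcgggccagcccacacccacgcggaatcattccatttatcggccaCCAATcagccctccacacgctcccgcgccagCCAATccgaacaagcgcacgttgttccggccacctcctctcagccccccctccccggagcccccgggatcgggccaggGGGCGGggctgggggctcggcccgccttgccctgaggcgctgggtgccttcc
HMGCS1: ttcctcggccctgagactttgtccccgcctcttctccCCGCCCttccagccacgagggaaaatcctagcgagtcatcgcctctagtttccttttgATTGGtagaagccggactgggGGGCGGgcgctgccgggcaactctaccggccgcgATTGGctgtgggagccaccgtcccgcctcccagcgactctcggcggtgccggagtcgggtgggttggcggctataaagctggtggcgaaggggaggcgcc
INSIG1: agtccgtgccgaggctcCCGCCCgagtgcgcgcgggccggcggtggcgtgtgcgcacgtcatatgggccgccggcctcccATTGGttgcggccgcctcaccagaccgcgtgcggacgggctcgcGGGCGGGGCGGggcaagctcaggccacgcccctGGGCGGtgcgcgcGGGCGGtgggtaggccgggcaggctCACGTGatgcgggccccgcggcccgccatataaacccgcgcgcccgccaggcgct
SREBF2: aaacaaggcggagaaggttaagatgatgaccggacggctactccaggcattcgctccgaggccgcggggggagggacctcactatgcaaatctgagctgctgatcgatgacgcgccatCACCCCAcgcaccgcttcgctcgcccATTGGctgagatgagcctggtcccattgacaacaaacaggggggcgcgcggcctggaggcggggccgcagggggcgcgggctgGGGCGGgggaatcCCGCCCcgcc

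The sterol regulatory element core was found in 4 of 34 windows of the members (11.8%; some genes have more than 1 start), those of EBP, MVD, MVK and SREBF2, and in 7% of all 35116 windows of that length. A CCAAT box was in 21 of 34 member windows (61.8%) and 32% of all windows, and a GC box in 31 of 34 (91.2%) and 42.6% of all windows. An E box was in 4 of 34 (11.8%) and 6.34% of all windows. The searched motifs share letters only where GC boxes run into each other, as in the INSIG1 window. These are letter matches only, and a window without a match says nothing of the factor. No window was found for FASN, ACAT2, FDFT1 and SQLE, so their promoters were not searched.

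After 30 min of merbarone, no member passed the test. Of the 30 members, 28 passed the filter of a mean of 1 RPKM (HSD17B7 and ELOVL6, an elongase of long-chain fatty acids, did not). In limma's test on log2(RPKM + 1) with Benjamini-Hochberg adjustment over 6500 genes, 0 of the 28 were called at an adjusted p under 0.05, where 0.0154% of all genes tested were. None had an unadjusted p under 0.05 either, where 24 of the 6500 genes did. Voom on the recovered reads called 0 of 30, beside 0.00714% of all genes. The log2 fold changes (treated minus control) ran from -0.09 (TM7SF2) to 0.11 (IDI1, the isomerase of isopentenyl diphosphate), with SEs of 0.04 to 0.22, and 13 were positive and 15 negative (17 and 11 with median scaling, 14 and 14 with quantile normalization). Their median was -0.00, and that of all genes -0.01, of which 42.3% were positive. Since this is bulk RNA, fewer cells of a type and less RNA per cell cannot be told apart in any of these values.

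The individual libraries show how close the treated cells were to their controls. FASN measured 29.8, 26.2 and 21.3 RPKM in DMSO and 28, 26.5 and 24.1 RPKM after merbarone. INSIG1 measured 29.9, 27.9 and 24.8 RPKM in DMSO and 31.7, 29.5 and 25.8 RPKM after merbarone. SCD measured 69.2, 73.5 and 71.4 RPKM in DMSO and 70.5, 75.7 and 68.8 RPKM after merbarone. The groups overlapped in all 3 genes. They did not overlap for 1 of the 28 members, against 2.28% of all genes tested (0.877% higher): SC5D, a sterol desaturase late in the pathway, with 5.76, 5.74 and 5.98 RPKM in DMSO and 6.20, 6.21 and 6.08 RPKM after merbarone, a log2 change of 0.07 ± 0.05 (SE).

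Libraries of the same replicate number, one of each group, resembled each other in the pathway. HMGCS1, the synthase of HMG-CoA, measured 23.4, 15.6 and 15.5 RPKM in DMSO replicates 1 to 3 and 24.4, 17.7 and 15.2 RPKM in the merbarone replicates 1 to 3. Replicate 1 was thus 50.2% above the mean of replicates 2 and 3 in DMSO and 48.0% above it after merbarone. ACAT2, the thiolase that makes acetoacetyl-CoA, was 30.3% and 27.8% higher in replicate 1, IDI1 30.8% and 23.3%, and MSMO1 23.7% and 26.6%. The desaturases FADS1 and FADS2 went the other way, by -25.3% and -23.8% for FADS1 and -23.9% and -23.2% for FADS2. Replicate 1 was the highest of the 3 libraries in both groups for 13 of 28 members (46.4%; 25.4% of all genes tested), among them 8 of the 17 tested enzymes from ACAT2 to DHCR7. It was the lowest in both groups for 6 of 28 members (21.4%; 37.1% of all genes tested), SREBF1 and SREBF2 among them. With the replicate number as a block, the SEs of the members fell to 0.03 to 0.06, and limma still called 0 of 28, against 0.123% of all genes tested. Unadjusted, 0 of the 28 had a p under 0.05, where 208 of 6500 genes did.

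**Figure D2:**
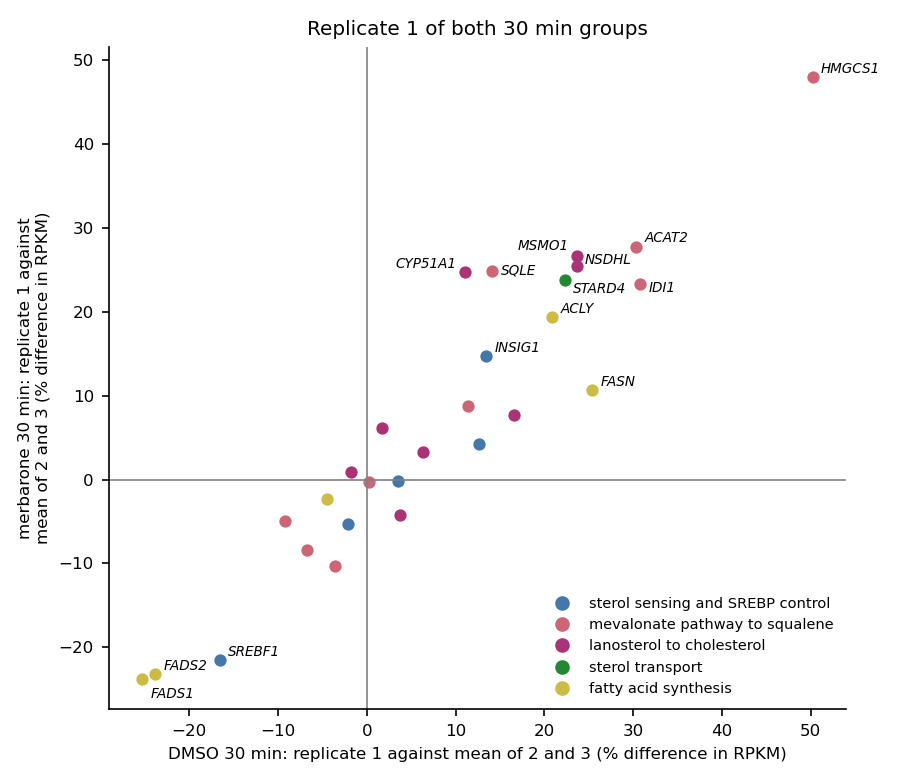
Replicate 1 against the mean of replicates 2 and 3, as % difference in RPKM, for the 28 members tested; the x axis is the DMSO group, the y axis the merbarone 30 min group, and each point is 1 gene coloured by its step. Most points lie near the diagonal: HMGCS1 is highest in both groups (50.2% and 48.0%), and FADS1 and FADS2 are lowest.

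After 2 h of merbarone, FASN rose and no other member passed the test. FASN (ENSG00000169710; GRCh37 chromosome 17, 80036214 to 80056170, minus strand) measured 14.2 and 15.8 RPKM in untreated cells and 25.0 and 27.0 RPKM after merbarone. Both treated libraries were higher than both controls, with means of 26.0 ± 1.40 and 15 ± 1.16 RPKM (SD, n = 2), a ratio of 1.73. On the log2 scale this was 0.75 ± 0.11 (SE), adjusted p = 0.00312 in limma and 1.59e-05 in voom on recovered reads. With each library left out in turn, the log2 change was 0.68 to 0.83. FASN missed the threshold in limma without the filter on low values (adjusted p = 0.0880). The treated level lay within the range of the DMSO libraries of the other experiment, 21.3 to 29.8 RPKM, and the untreated level below it.

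The count, 1 of 28 members called, stands beside 13.1% of 6620 genes called at 2 h, 5.98% higher and 7.10% lower. Unadjusted, 6 of the 28 members had a p under 0.05, as did 2070 of the 6620 genes tested. Of the 28 log2 fold changes, 12 were positive and 16 negative (13 and 15 with median scaling, 15 and 13 with quantile normalization), with a median of -0.05. Of all genes tested 39.7% were positive, with a median of -0.05. The groups were fully apart for 6 members that were higher and 11 that were lower, 60.7% in all, against 61.5% of all genes tested (22.5% higher and 39.0% lower). With 2 libraries a group the count of called members depended on the test and on single libraries. It was 6 of 30 in voom on the recovered reads, where 14.0% of all genes were called (4 higher and 2 lower, against 7.94% and 6.09%). With replicates as a block it was 7 (3 lower, against 32.2% of all genes in all and 19.9% lower). Leaving out 1 library leaves 1 in its group, so sizes alone are given here. Across those fits the log2 change was 0.68 to 0.83 for FASN, 0.27 to 0.72 for STARD4 and -0.45 to -0.22 for HMGCS1.

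**Figure D3:**
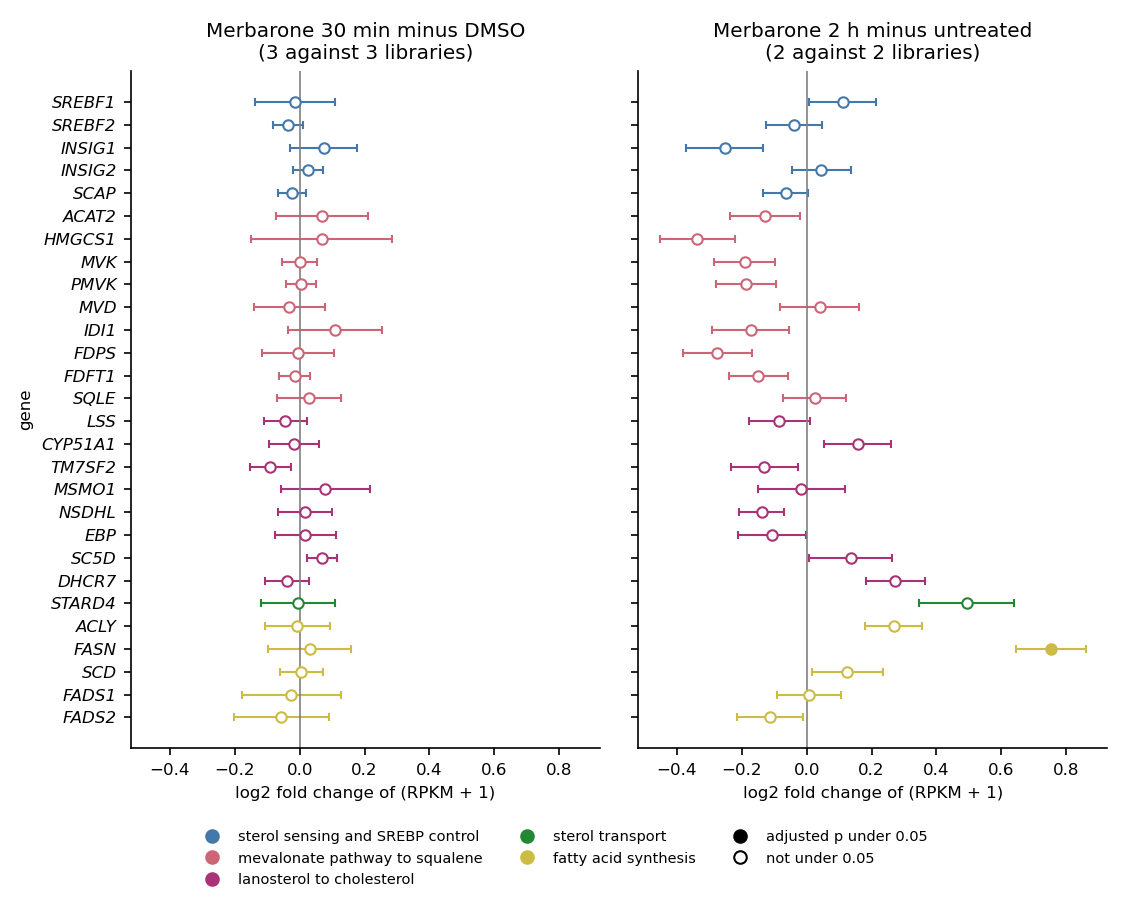
Log2 fold change of (RPKM + 1) for the 28 members tested, at 30 min on the left and 2 h on the right; points are limma estimates, bars 1 SE, colours the step of the pathway, and a filled point has an adjusted p under 0.05. At 30 min all points lie between -0.09 and 0.11; at 2 h FASN alone is filled, and 7 of the 9 mevalonate genes lie below 0.

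Among the fatty acid genes, ACLY, which makes the cytosolic acetyl-CoA that FASN uses, measured 5.89 and 5.55 RPKM untreated and 6.95 and 7.23 RPKM after 2 h, without overlap. Its log2 change of 0.27 ± 0.09 (SE) had adjusted p = 0.0796 in limma and 0.0371 in voom. SCD measured 110 and 103 RPKM untreated and 117 and 116 RPKM after merbarone, a log2 change of 0.13 ± 0.11 (SE) at adjusted p = 0.470 in limma. ELOVL6 was under the filter, with 0.750 and 0.701 RPKM untreated and 0.559 and 0.536 RPKM after merbarone. It rested on 1073 to 4308 reads per library and was called lower by voom, with a log2 change of -0.41 and adjusted p = 0.0173. FADS1 and FADS2 had log2 fold changes of 0.01 and -0.11 with adjusted p-values of 0.968 and 0.473 in limma. The value of SCD thus had the sign of those of FASN and ACLY, and the values of ELOVL6 and FADS2 the opposite one.

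STARD4, a soluble carrier of cholesterol between membranes, was the sterol gene with the largest positive value at 2 h. It measured 7.22 and 5.03 RPKM in untreated cells and 9.69 and 8.19 RPKM after merbarone, a log2 change of 0.49 ± 0.15 (SE) at adjusted p = 0.0573 in limma and 0.00971 in voom. The untreated libraries were further from each other than the treated ones were. The value was 0.72 without untreated replicate 1 and 0.27 without untreated replicate 2. Without the 2 h merbarone replicate 2 it was 0.60. The DMSO libraries of the other experiment, at 9.96, 8.42 and 7.87 RPKM, were at the level of the treated ones. DHCR7, the reductase of the last step to cholesterol, was steady within groups, with 8.63 and 8.61 RPKM untreated and 10.6 in both treated libraries. Its log2 change was 0.27 ± 0.09 (SE), at adjusted p = 0.0815 in limma and 0.0460 in voom.

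**Figure D4:**
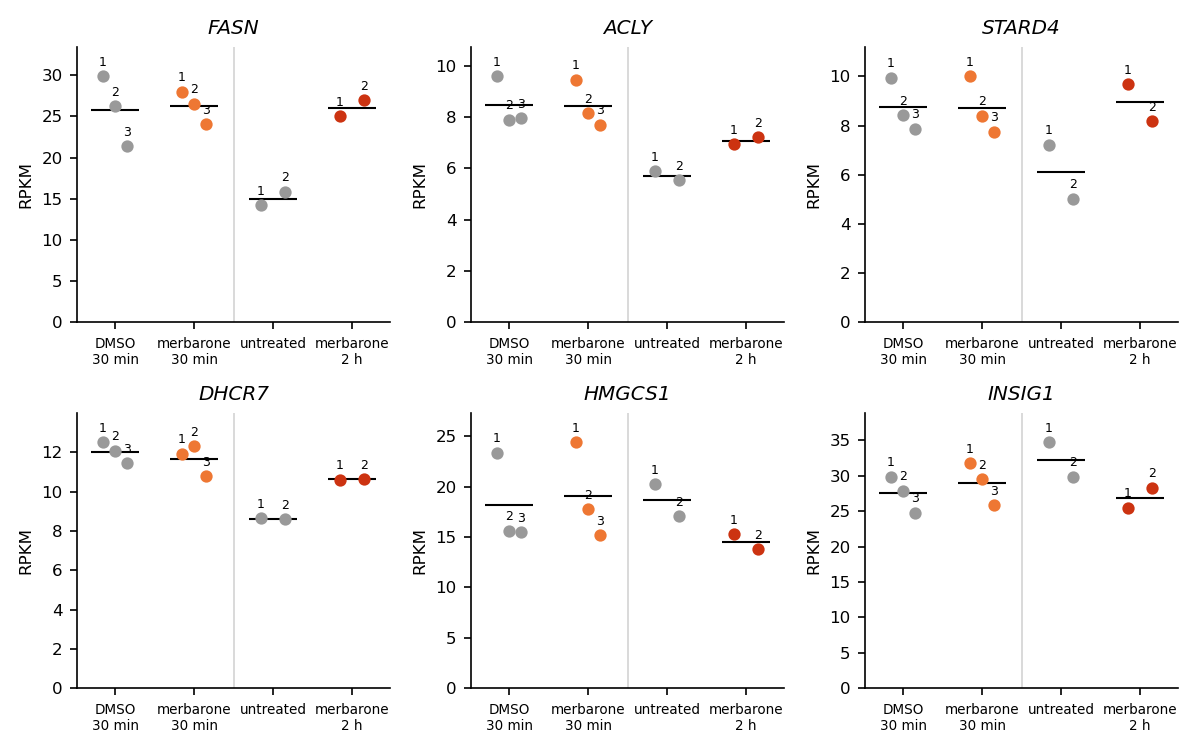
RPKM of 6 members in every library, numbered by replicate, with group means as lines; the axes start at 0, and the vertical grey line separates the experiments. In FASN, ACLY, STARD4 and DHCR7 both 2 h merbarone libraries lie above both untreated libraries, in HMGCS1 and INSIG1 both lie below them, and the 30 min groups overlap in all 6 genes.

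The mevalonate genes gave mostly negative values at 2 h, none of which passed limma's test. Of the 9 tested, 7 had a negative log2 change (7 also with median scaling and 7 with quantile normalization), where 39.7% of all genes were positive. In 6 of the 9 the treated libraries were lower without overlap, against 39.0% of all genes tested. The list's median was -0.17 beside -0.05 for all genes, -0.15 beside -0.03 with median scaling and -0.07 beside -0.02 with quantile normalization. Apart from MVK and PMVK, the 9 averaged more than 5 RPKM. Of all genes averaging at least 5 RPKM, 27.2% were positive, with a median of -0.13, nearer to that of the list. Voom called 1 of the 9 (HMGCS1) lower, against 6.09% of all genes lower. The replicate block called 3 of the 9 (HMGCS1, PMVK and FDPS) lower, against 19.9% of all genes lower. HMGCS1 measured 20.2 and 17.1 RPKM untreated and 15.3 and 13.8 RPKM after merbarone, both treated libraries lower. Its log2 change was -0.34 ± 0.12 (SE), at adjusted p = 0.0896 in limma and 0.0283 in voom. It was -0.45 without untreated replicate 2 and -0.22 without untreated replicate 1. FDPS measured 22.2 and 22.4 RPKM untreated and 17.2 and 19.4 RPKM after merbarone, with a log2 change of -0.28 ± 0.11 (SE) and adjusted p = 0.119 in limma. The kinases MVK and PMVK, which phosphorylate mevalonate in turn, both had a log2 change of -0.19 ± 0.09 (SE). MVK measured 2.87 and 3.54 RPKM untreated and 2.62 and 2.73 RPKM after merbarone, and PMVK 1.81 and 2.27 RPKM untreated and 1.53 and 1.79 RPKM after it. Without untreated replicate 1 MVK was at -0.31 and PMVK at -0.30, and without untreated replicate 2 both were at -0.08. MVD, the decarboxylase after them, and SQLE, which makes the epoxide of squalene, had values of 0.04 ± 0.12 and 0.02 ± 0.10 (SE), whose signs turned when single libraries were left out (-0.10 to 0.18 for MVD, -0.04 to 0.09 for SQLE). FDFT1, the squalene synthase, had -0.15, with 10.2 and 10.1 RPKM untreated and 8.86 and 9.22 RPKM after merbarone.

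From lanosterol to cholesterol the signs were mixed: of 8 genes tested, limma called 0, against 13.1% of all genes, 3 were positive and 5 negative (4 and 4 with median scaling, 5 and 3 with quantile normalization), with a median of -0.05. DHCR7 was called by voom, with the replicate block (adjusted p = 0.0197) and with quantile normalization (adjusted p = 0.0331). CYP51A1, the lanosterol demethylase, measured 3.72 and 2.87 RPKM untreated and 3.72 and 3.81 RPKM after merbarone, with a log2 change of 0.16 ± 0.10 (SE) that was 0.01 without untreated replicate 2 and 0.30 without replicate 1. NSDHL, a sterol dehydrogenase, measured 1.82 and 1.88 RPKM untreated and 1.59 in both treated libraries, with a log2 change of -0.14 ± 0.07 (SE). The other 5, apart from DHCR7, had log2 fold changes of -0.13 to 0.14. HSD17B7, under the filter, was 0.288 and 0.280 RPKM untreated and 0.264 and 0.260 RPKM after merbarone.

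Limma called 0 of the 5 sensing genes, as did voom and the replicate block, against 13.1%, 14.0% and 32.2% of all genes. INSIG1 measured 34.7 and 29.9 RPKM untreated and 25.5 and 28.3 RPKM after merbarone, both treated libraries lower, with a log2 change of -0.25 ± 0.12 (SE) and adjusted p = 0.182 in limma. It was -0.36 without untreated replicate 2 and -0.15 without untreated replicate 1. SREBF1 had a log2 change of 0.11 ± 0.10 (SE; -0.02 to 0.25 with 1 library left out), SREBF2 of -0.04 ± 0.09 (SE), INSIG2 of 0.05 ± 0.09 (SE) and SCAP of -0.07 ± 0.07 (SE). As shares of all reads, the 18 enzymes from ACAT2 to DHCR7 took 0.350% and 0.326% in untreated cells and 0.309% and 0.319% after 2 h of merbarone. The 6 fatty acid genes took 0.479% and 0.476% untreated and 0.508% and 0.512% after merbarone. All 30 members together took 0.881% to 0.945% of reads in every one of the 10 libraries.

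Values are less certain for 8 members that overlap another gene of the tables, since the strand setting of the counting is not given: SREBF1 (with RAI1), ACAT2 (TCP1), MVK (MMAB), FDFT1, CYP51A1 (AKAP9), TM7SF2 (VPS51), and FADS1 and FADS2 with each other. FADS2 also overlaps FEN1. Reads of IDI1, FDPS, CYP51A1, HSD17B7 and SCD may be shared with their pseudogenes. FASN, STARD4, ACLY, DHCR7, HMGCS1 and INSIG1 have neither in the annotation used.

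A further 41 genes around the pathway were counted in 4 lists. At 30 min 27 were tested and limma called 0. At 2 h limma called 3 of 25 tested, 1 higher and 2 lower, where it called 13.1% of all genes (5.98% higher and 7.10% lower). Voom called 5 of 40 against 14.0% of all genes, and the replicate block 8 of 25 against 32.2%. In the list of SREBP processing and INSIG turnover, limma called 1 of 8: RNF145, a ubiquitin ligase of the endoplasmic reticulum, fell. It measured 2.79 and 2.53 RPKM in untreated cells and 1.67 and 1.75 RPKM after merbarone, a log2 change of -0.43 ± 0.08 (SE) at adjusted p = 0.00847 in limma. In sterol storage, traffic and LXR, limma called 2 of 6. NPC1, which exports cholesterol from lysosomes, rose, from 1.58 and 1.43 RPKM to 1.99 and 2.17 RPKM, at adjusted p = 0.0325 in limma. LIPA, the lysosomal lipase, fell, from 1.36 and 1.22 RPKM to 0.991 and 0.872 RPKM, at adjusted p = 0.0447 in limma. NPC1 overlaps RMC1, and LIPA spans 4 IFIT genes, so both are uncertain. RNF145, NPC1 and LIPA all missed the threshold in limma without the filter on low values (adjusted p = 0.101, 0.139 and 0.170). NPC1 and LIPA also missed it without a variance trend (0.0504 and 0.0855), and LIPA missed it with median scaling (0.0617). All of these calls were lost without the 2 h merbarone replicate 1, and those of NPC1 and LIPA also without replicate 2. Those fits leave 1 library in the treated group. The isoprenoid list (2 tested) and the acyl-CoA and lipid list (9 tested) had 0 called in limma and in voom, and 2 of the 9, ACSL4 and ELOVL1, were called with the replicate block.

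The effects at 2 h and 30 min were compared directly in a contrast over all 10 libraries, in which time, kind of control and experiment cannot be told apart. Limma called 0 of 28 members, against 1.63% of 6558 genes, and voom 0 of 30, against 0.475%. In limma 3 of the 28 had an unadjusted p under 0.05, as did 1053 of the 6558 genes. FASN came nearest, with a difference in log2 change of 0.72 ± 0.19 (SE) and adjusted p = 0.0964. STARD4 had a difference of 0.50 ± 0.22 (SE) and adjusted p = 0.304, and DHCR7 one of 0.31 ± 0.10 (SE) and adjusted p = 0.190. HMGCS1 had -0.41 ± 0.30 (SE) and adjusted p = 0.566. With the replicate number as a block, 6 of 28 members were called, against 19.1% of all genes tested: FASN (adjusted p = 0.00353), STARD4, DHCR7 and ACLY in the positive direction, HMGCS1 and PMVK in the negative. FASN was also called without DMSO replicate 3 (adjusted p = 0.0386) and in no other fit that left out 1 library.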

How the data were processed

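For each library the authors deposited RPKM values by Ensembl gene, per the file headers, on a linear scale. Bowtie 1.2.0, DESeq2, edgeR, deepTools 2.4.1 and hg19 (GRCh37) are named, without roles, in the submitters' processing notes. The read counter, annotation and strand setting are not given in the sources used here. Libraries were made with the TruSeq Stranded mRNA kit from 150 ng of total RNA, per the labels' protocols.

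RPKM values were whole multiples of 1 read for 17680 of 17680 genes with any value (tolerance 0.001), so reads were recovered. The length implied was within 1% of the genomic span for 75.3% of 17234 genes compared, and within 1% of the summed exon length for 1.60%. It differed from the span for 8 members, so their GRCh37 positions need not be the regions counted. RPKM moves with the rest of the library: a rise of abundant genes lowers all others.

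Each experiment was fitted with limma 3.58.1 (R 4.3.3; lmFit, eBayes with trend) on log2(RPKM + 1), computed here from the deposited values, for genes averaging 1 RPKM or more, two-sided, with Benjamini-Hochberg adjustment over all genes tested and a threshold of 0.05. The scale understates changes of low genes. Voom on the recovered reads (mean of at least 10 reads) called 1 gene at 30 min and 1886 at 2 h. Also tried were quantile normalization, median scaling, a pseudocount of 0.1, a filter at 5 RPKM or none, eBayes without trend, replicate as a block, 1 fit of all 10 libraries, and each library left out. The fits were tested on simulated data. Same-numbered libraries at 30 min deviated together (correlations 0.925, 0.646 and 0.605 over 6500 genes); the pairing rests on the labels' replicate numbers. Replicates differed by more than sampling noise (chi-square of 4.00 to 61.1 per degree of freedom).

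Members and lists were chosen with earlier results of these data known. All members are named by role; other pathway genes are named only where called. Python 3.11.15, NumPy 2.4.6, pandas 2.3.3 and matplotlib 3.10.9 were used.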

Additional observations from a re-analysis of the deposited data

How the results depend on the processing

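At 30 min 0 members were called under all 16 alternatives. At 2 h, where 1 member was called, the count was 0 without the filter on low values, 3 with quantile normalization (DHCR7, ACLY and FASN), 6 with voom on recovered reads, 7 with the replicate number as a block and 9 with voom and the block, and 1 to 10 with 1 library left out. The correlation of same-numbered 2 h libraries was 0.30, a single value, since with 2 libraries a group both pairs must give the same one. That block fit had 1 residual degree of freedom and took each gene's variance from the trend, and it called 2129 of 6620 genes, against 866 without the block. Over all genes at 2 h, quantile normalization called 784 of 6620. Other counts were 53 of 16810 without a filter, 397 of 2233 with the filter at 5 RPKM, 1886 of 13441 with voom and 3438 of 13441 with voom and the block. For the difference between experiments, where 0 members were called, the block gave 6, voom with the block 8, and leaving out 1 library 0 to 1. Over all genes that contrast called 107 of 6558, 361 of 17680 without a filter and 36 of 2163 with the filter at 5 RPKM. It called 66 of 13900 with voom, 1255 of 6558 with the block and 2100 of 13900 with voom and the block. With 1 library of the 30 min experiment left out it called 62 to 86. At 30 min 1 gene was called in all, 8 with the block and 13 with voom and the block. No called value changed sign. Of 383 refits of single members at 2 h, 350 kept their side of the threshold, 32 passed it newly and 1 (FASN without the filter) lost it. Where 1 untreated or treated library was left out at 2 h, the lone sample was assumed to vary like the other group. The cause of these shifts was not tested. Depth limits HSD17B7, with at most 119 reads per library.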
